A study of Mus musculus with 16 samples.

Results

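Fndc5, Il15, Metrnl, Bdnf, Fstl1 and Apln are genes for myokines, signalling proteins that skeletal muscle releases, and their transcripts were followed across adult life and old age in mouse gastrocnemius, a calf muscle made mainly of fast fibres. The 6 genes were taken by name and not by a cutoff on their values, though with earlier results of these data known. Their transcripts were matched by 7 probes, and all 6 were among the 21777 genes tested. The samples came from female mice of the inbred strain C57Bl/6J at 3, 15, 24 and 29 months of age, none of which had been treated, with 4 samples an age and 1 array a sample. RNA was labelled with Cy3 and read as the brightness of each probe on a 1-colour array. The sources used here do not say whether the 4 samples of an age came from 4 animals or whether tissue was pooled. The p-values therefore rest on the spread among these samples only, which may be technical.

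Myokines carry signals from contracting muscle to other tissues, to blood vessels and nerves, and back to the fibres themselves. Fndc5 encodes a membrane protein whose outer part is cut off and released as irisin, and the transcriptional coactivator Ppargc1a (PGC-1alpha) raises its expression. Il15 encodes a cytokine of the common gamma chain family that is shown to lymphocytes by its own receptor subunit Il15ra, Metrnl encodes meteorin-like, a secreted relative of the neural protein meteorin, and Bdnf encodes a neurotrophin, a growth factor of neurons that muscle fibres also make. Fstl1 encodes follistatin-like 1, a glycoprotein of the Sparc family made largely by connective tissue cells, and Apln encodes the precursor of apelin, the peptide ligand of the receptor Aplnr on blood vessels and other cells.

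Slide 1 held the arrays of 3 and 15 months, and slide 2 held those of 24 and 29 months. Within a slide, 15 was compared with 3 months and 29 with 24 months. The step of 24 against 15 months coincided with the change of slide and 29 against 3 months spanned it, so age and slide cannot be told apart in these. Within each slide the ages filled separate runs of array numbers, so age and place on the slide cannot be told apart there. Between 48.0% and 60.9% of the spots were well above background on an array and 0 were saturated. The 8 muscle fibre markers were well above background on every array. Arrays of the old ages differed most from the others of their age. The weights limma gives from this spread were 0.275 and 0.400 for replicates 1 and 3 of 29 months and 0.365 and 0.524 for replicates 2 and 4 of 24 months, against 0.993 to 2.08 on the other 12. Markers of cell types were scored per array as the log2 deviation from each marker's own mean, averaged over the list. By these scores 29 months replicate 1 was lowest for muscle fibres (-0.42) and highest for B and plasma cells (2.90, 4 of 6 markers measured) and T and NK cells (0.73, 4 of 8). For fibroblasts (8 of 8) the lowest were 24 months replicate 2 (-1.83) and 29 months replicate 3 (-1.52). Adipocyte markers (7 of 8) stood at 3.15 on 24 months replicate 4 and at -2.25 on 29 months replicate 3.

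Levels are log2 signals relative to the 75th percentile of the array, so that 0 is the brightness which 3 in 4 probes do not reach. They are compared between arrays for 1 probe, and not between genes, because probes differ in brightness for the same amount of RNA. Of the genes, Fndc5, Il15, Metrnl, Bdnf and Fstl1, were well above background on all 16 arrays. Apln was well above background on 4, 3, 2 and 4 arrays of 4 at 3, 15, 24 and 29 months. A second Metrnl probe was above background on 0 of the 16 arrays, with levels of -6.04 to -4.17, and carried no measurement.

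**Figure D1:**
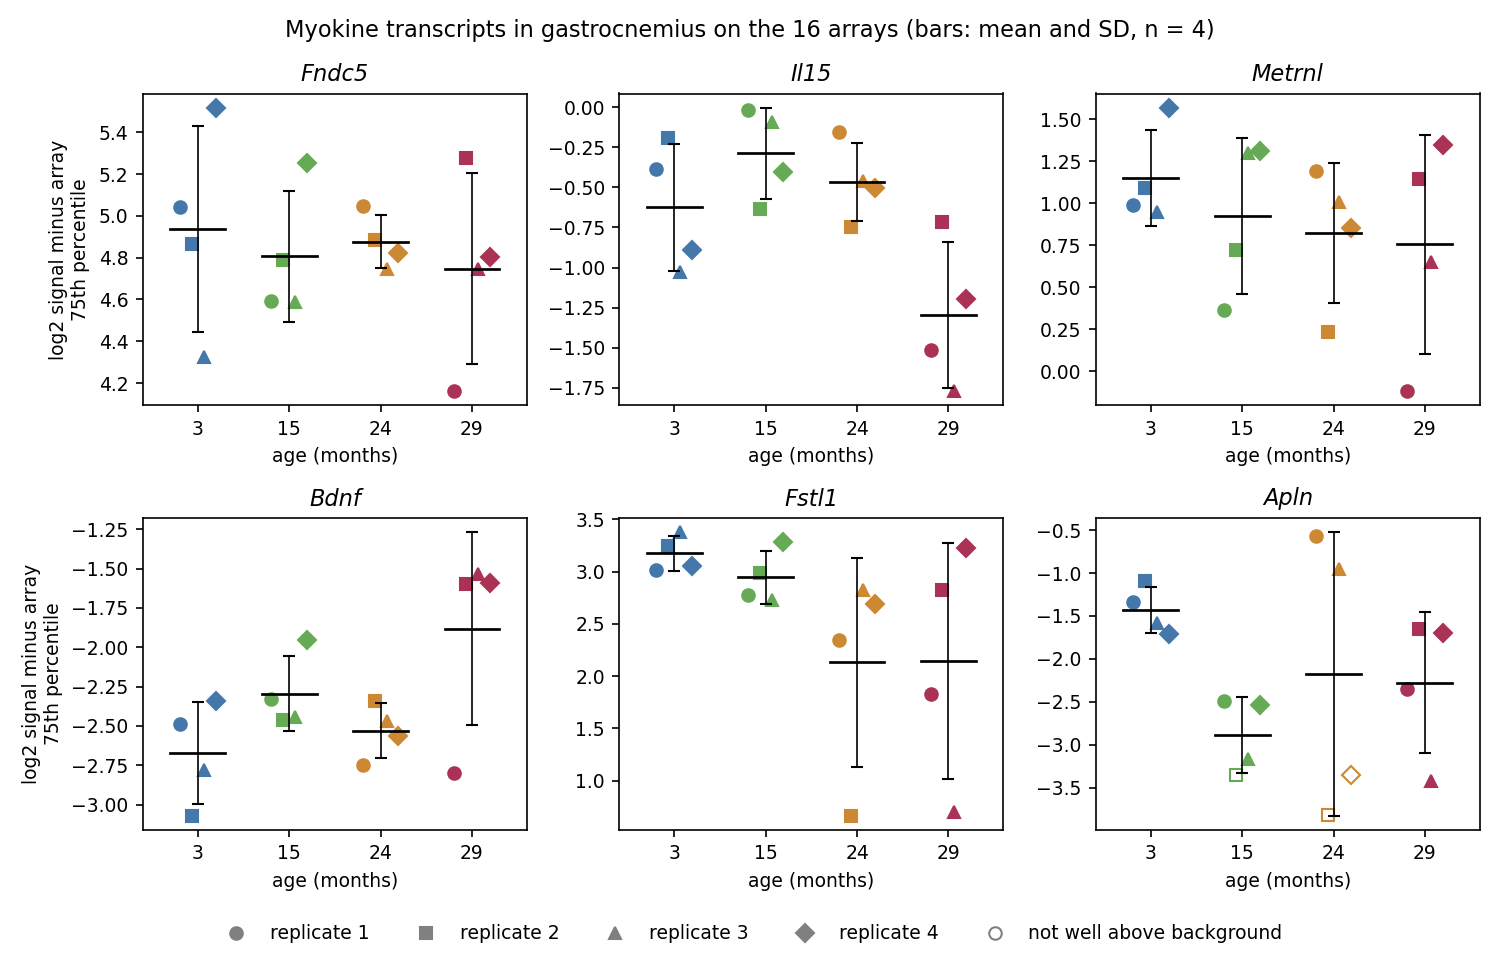
Level of each myokine transcript on every array by age, as log2 signal minus the array's 75th percentile, with the mean and SD of the 4 arrays as black bars. Bdnf lay between -1.60 and -1.54 on 3 arrays of 29 months and at -2.80 on the fourth, and Fstl1 and Apln spread most at 24 and 29 months; open symbols mark arrays not well above background.

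Across the widest span, 29 against 3 months, Bdnf was the only one of the 6 that passed the test, and it was higher at 29 months. That is 1 of 6 called, with 14.8% of all genes tested called in this comparison (6.84% of all genes higher and 7.95% lower). Higher genes made up 46.2% of these calls, and 53.2% with arrays scaled to their median. The median difference of the 6 genes was -0.53 on the log2 scale, beside -0.04 for all genes tested. Without the 4 arrays of lowest weight these medians were -0.03 and -0.05. In the comparisons of 15 against 3 months (0.914% of genes called), 24 against 15 months (0.101%) and 29 against 24 months (1.52%), 0 of the 6 were called by limma after Benjamini-Hochberg adjustment. An unadjusted p under 0.05 was reached by 2 of the 6 at 29 against 3 months (28.8% of all genes), by 1 at 15 against 3 months (10.9%), by 0 at 24 against 15 months (13.1%) and by 2 at 29 against 24 months (15.2%).

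**Figure D2:**
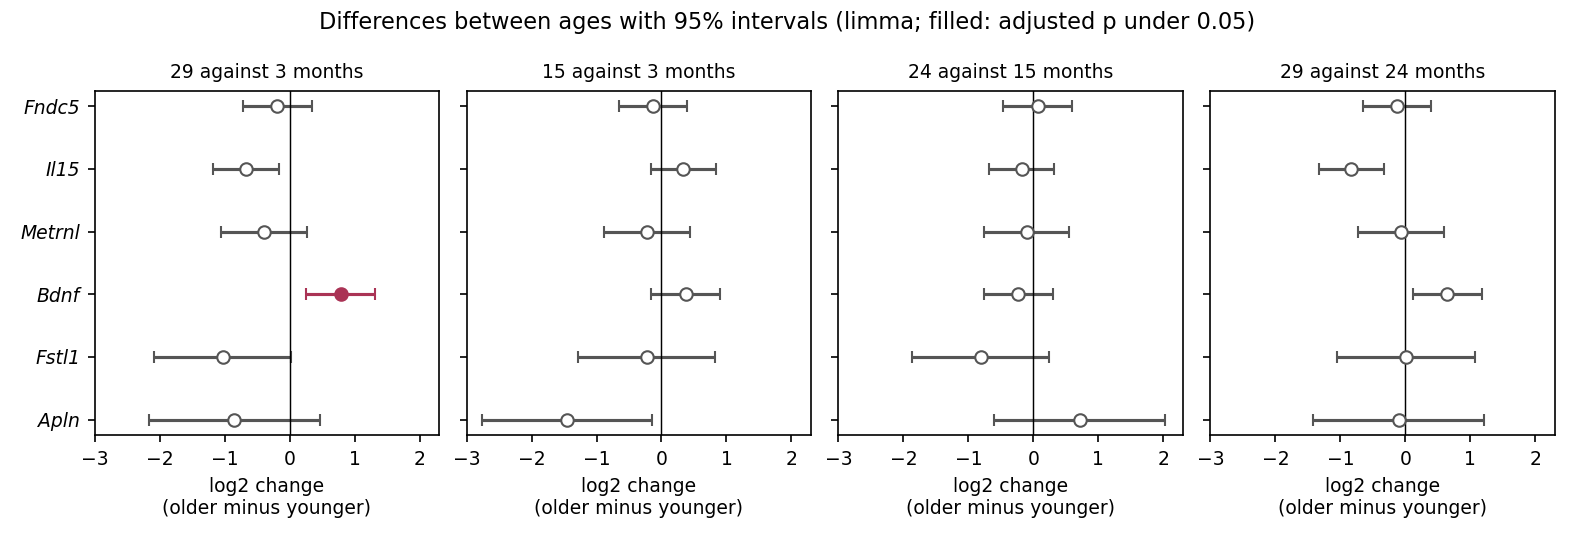
Difference in level of each transcript between ages, older minus younger on the log2 scale, with its 95% interval from the limma fit in 4 comparisons. The filled point is Bdnf at 29 against 3 months (0.79), and the intervals of Il15 at 29 against 3 and 29 against 24 months, of Bdnf at 29 against 24 months and of Apln at 15 against 3 months also leave out 0 before adjustment.

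Bdnf, the neurotrophin, was high on 3 of the 4 arrays of 29 months. Its levels were -2.49, -3.07, -2.78 and -2.34 on replicates 1 to 4 of 3 months, -2.33, -2.46, -2.44 and -1.95 at 15 months, -2.75, -2.34, -2.47 and -2.56 at 24 months, and -2.80, -1.60, -1.54 and -1.59 at 29 months. Replicates 2, 3 and 4 of 29 months lay above every array of the other ages, whereas replicate 1 lay among the 4 arrays of 3 months, so the groups overlapped. It averaged -1.88 ± 0.61 in muscle of 29 months and -2.67 ± 0.32 in muscle of 3 months (SD, n = 4 each), a 1.73-fold higher signal (log2 difference 0.79, SE 0.25, 95% interval 0.26 to 1.32, limma adjusted p = 0.0461). The call lay close to the threshold. It held in 4 of 16 fits that each left out 1 array: those without 3 months replicate 4, 15 months replicate 4, 24 months replicate 2 or 29 months replicate 1. The adjusted p ran from 0.00116 (log2 difference 1.09, without 29 months replicate 1) to 0.136 (without 3 months replicate 2). Under quantile normalization (adjusted p = 0.0814), median scaling (0.113), the deposited values (0.0972), no filter on dim probes (0.0919) or a fit of these 8 arrays alone (0.141) it was also lost, with log2 differences of 0.71 to 0.79. Setting aside the 4 arrays of lowest weight gave a difference of 1.07 (adjusted p = 0.00648), and normexp background correction one of 0.42 (adjusted p = 0.0365). The Bdnf probe was dim, at -3.07 to -1.54. The lowest spot well above background stood at -4.02 to -3.30, depending on the array.

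Within a slide, Bdnf was 1.57-fold higher at 29 months than at 24 months (-1.88 ± 0.61 against -2.53 ± 0.17, log2 difference 0.65, SE 0.25), which did not pass (adjusted p = 0.226). Without 29 months replicate 1 the difference was 0.95 with an adjusted p of 0.0161. In 15 of the 16 fits that left out 1 array it was not called, with adjusted p-values up to 0.412. The difference at 15 against 3 months was 0.37 (adjusted p = 0.693) and at 24 against 15 months -0.23 (adjusted p = 0.703). In the order of means, 29, 15, 24 and 3 months from high to low, the neighbours 15 and 24 months and the neighbours 24 and 3 months lay within the spread of their arrays. The array that stands apart, 29 months replicate 1, was the one with the lowest muscle fibre score. Its scores on the B and plasma cell list and on the T and NK cell list were the highest. It also gave the lowest Fndc5 and the lowest Metrnl level of all 16 arrays. The part of its makeup in the Bdnf value was not tested.

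**Figure D3:**
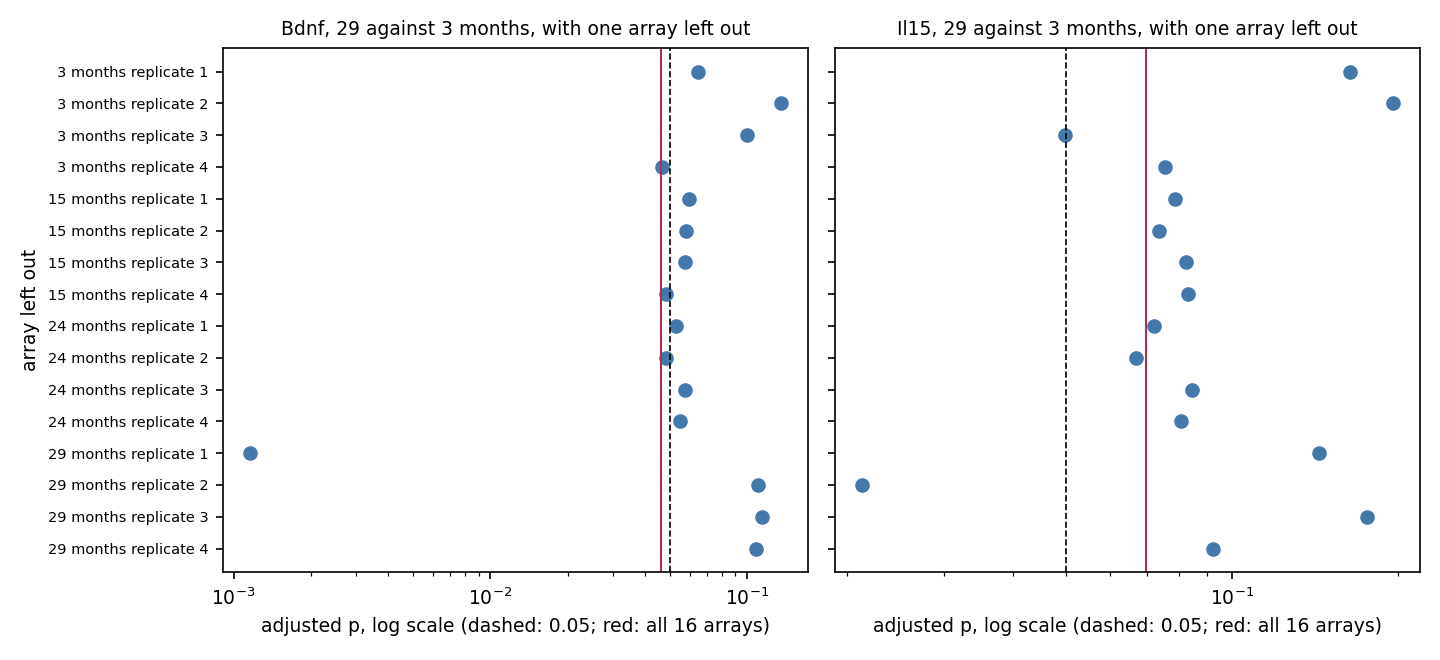
Adjusted p of Bdnf (left) and Il15 (right) at 29 against 3 months when the array named on the vertical axis is left out, on a log scale. The red line is the value with all 16 arrays (0.0461 for Bdnf and 0.0699 for Il15) and the dashed line is 0.05; without 29 months replicate 1 the p of Bdnf was 0.00116, and without 29 months replicate 2 that of Il15 was 0.0213.

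Il15, the cytokine that maintains natural killer cells and memory T cells, was lowest at 29 months. It stood at -0.39, -0.20, -1.03 and -0.89 on the arrays of 3 months, at -0.02, -0.63, -0.10 and -0.41 at 15 months, at -0.15, -0.75, -0.46 and -0.50 at 24 months, and at -1.51, -0.71, -1.77 and -1.19 at 29 months. All 4 arrays of 29 months lay below all 4 of 15 months, 3 of them below every array of 24 months, and they overlapped those of 3 months. The pair of 29 and 15 months was not tested and spans both slides, so age and slide cannot be told apart in it. No share of all genes with such a separation is given for that pair. Against 24 months, on the same slide, the mean was 1.78-fold lower at 29 months (-1.30 ± 0.45 against -0.47 ± 0.24, log2 difference -0.83, SE 0.24, 95% interval -1.33 to -0.33), which did not pass (limma adjusted p = 0.0995). Against 3 months the difference was -0.67 (SE 0.24, adjusted p = 0.0699).

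Single arrays decided on which side of the threshold Il15 lay. Without 29 months replicate 2, the highest array of its age, Il15 was called against 3 months (log2 difference -0.87, adjusted p = 0.0213) and against 24 months (-1.02, adjusted p = 0.0374), and without 3 months replicate 3 it was called against 3 months (-0.81, adjusted p = 0.0499). Leaving out the 4 arrays of lowest weight gave a difference of -0.33 from 3 months (adjusted p = 0.411). At 15 against 3 months it was 0.34 (adjusted p = 0.720) and at 24 against 15 months -0.18 (adjusted p = 0.765). The order of means was 15, 24, 3 and 29 months from high to low, and the first 3 lay within the spread of their arrays.

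For Fndc5, the irisin precursor, the differences between ages lay within the spread between arrays. Its levels ran from 4.33 to 5.52 at 3 months, from 4.59 to 5.25 at 15 months, from 4.75 to 5.04 at 24 months and from 4.16 to 5.28 at 29 months, so every age overlapped every other. The means were 4.94 ± 0.49, 4.81 ± 0.31, 4.88 ± 0.13 and 4.75 ± 0.46 in order of age (SD, n = 4 each). At 29 against 3 months the difference was -0.19 (SE 0.25, adjusted p = 0.666), with a 95% interval of -0.72 to 0.34. Without the 2 arrays of lowest weight it was 0.0049. The other 3 comparisons gave -0.13, 0.07 and -0.13, with adjusted p-values of 0.851 to 0.956, and the sign of the last 2 turned under scaling by the median (-0.088 and 0.017).

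Metrnl, the meteorin-like factor, had overlapping levels at all ages as well. The 4 arrays spanned 0.95 to 1.57 at 3 months, 0.36 to 1.31 at 15 months, 0.23 to 1.19 at 24 months and -0.12 to 1.35 at 29 months. The means, 1.15 ± 0.29, 0.92 ± 0.46, 0.82 ± 0.42 and 0.76 ± 0.65, stood in the order of age, each step being smaller than the SD of either group. The difference at 29 against 3 months was -0.39 (SE 0.31, 95% interval -1.05 to 0.27, adjusted p = 0.438), and 0.096 with the 4 arrays of lowest weight left out. At 29 against 24 months it was -0.06 (adjusted p = 0.950), and 0.081 with median scaling.

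Fstl1, the secreted follistatin-like protein, spread more widely between arrays at the old ages. It had 3.02, 3.25, 3.38 and 3.05 on the arrays of 3 months, 2.78, 2.98, 2.73 and 3.28 at 15 months, 2.35, 0.67, 2.83 and 2.69 at 24 months, and 1.83, 2.82, 0.70 and 3.22 at 29 months. Replicate 2 of 24 months and replicate 3 of 29 months lay more than a log2 unit below the other 14 arrays, and the highest array of 29 months lay among those of 3 months. The SD was 0.17, 0.25, 0.999 and 1.13 in order of age. At 29 against 3 months the mean was 2.04-fold lower (2.15 ± 1.13 against 3.17 ± 0.17, log2 difference -1.03, SE 0.49, 95% interval -2.08 to 0.03, adjusted p = 0.185). Leaving out 29 months replicate 3 gave -0.55 (adjusted p = 0.448) and leaving out the 4 arrays of lowest weight gave -0.15 (adjusted p = 0.634). The other differences were -0.23 at 15 against 3 months, -0.81 at 24 against 15 months and 0.01 at 29 against 24 months, with adjusted p-values of 0.967, 0.491 and 0.995.

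The 5 arrays with the lowest fibroblast marker scores were the 5 with the lowest Fstl1, in the same order. From the lowest up, they were replicate 2 of 24 months (score -1.83), replicates 3 and 1 of 29 months (-1.52 and -0.60) and replicates 1 and 4 of 24 months (-0.24 and -0.06). By age, fibroblast scores ran from 0.40 to 0.97 at 3 months, 0.12 to 0.42 at 15 months, -1.83 to 0.07 at 24 months and -1.52 to 0.39 at 29 months. Of the 8 fibroblast markers, all measured, 3 were lower and 0 higher at 29 against 3 months (7.95% and 6.84% of all genes). Their median difference was -0.89. Col1a1, a chain of type I collagen, was 6.04-fold lower (1.48 ± 1.26 against 4.08 ± 0.52, log2 difference -2.60, adjusted p = 0.00415). The part of these cells in the Fstl1 levels was not tested, and in whole muscle fewer cells of a type and less RNA per cell cannot be told apart.

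**Figure D4:**
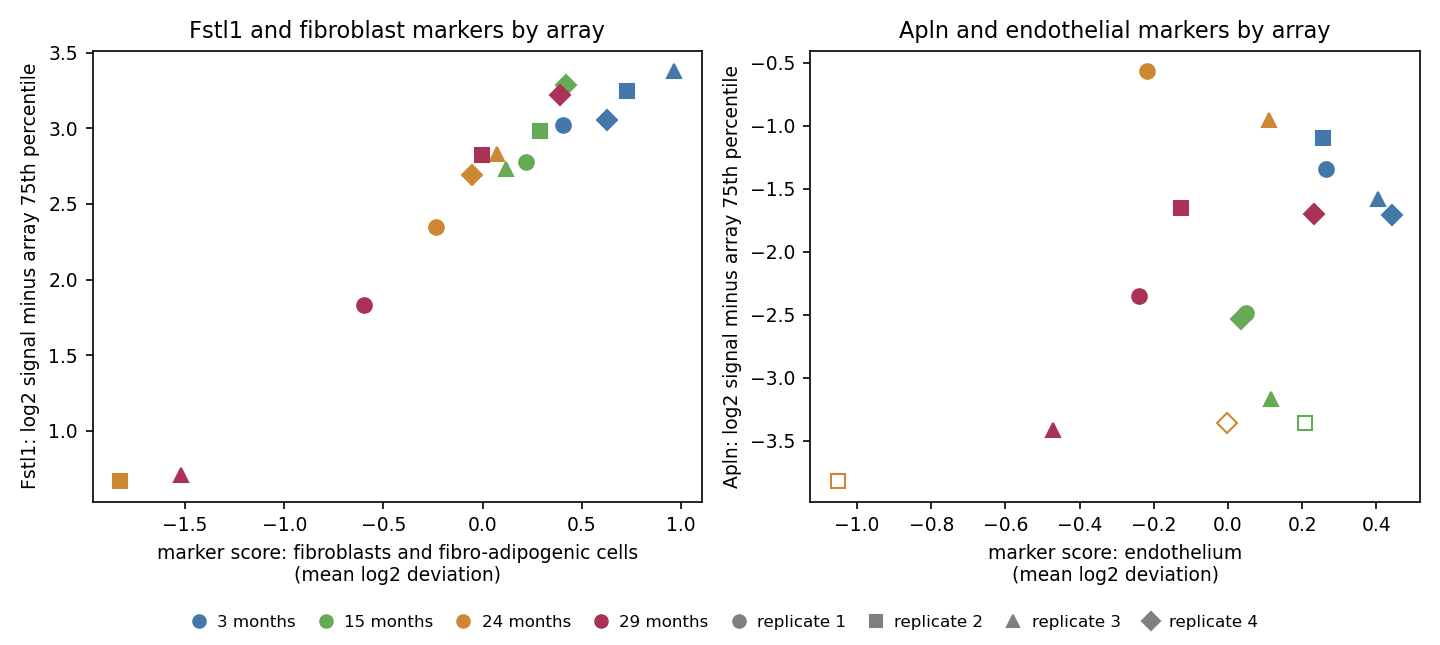
Left, Fstl1 level against the fibroblast marker score of each array; right, Apln level against the endothelial marker score, with colours for ages, shapes for replicates and open symbols for arrays not well above background. The 2 arrays with the lowest fibroblast scores (-1.83 and -1.52) had the 2 lowest Fstl1 levels (0.67 and 0.70). Apln lay at -3.36 to -2.49 at 15 months, with endothelial scores of 0.03 to 0.21. At 3 months it lay at -1.70 to -1.09, with endothelial scores of 0.26 to 0.44.

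Apln, the apelin precursor, was lower at 15 than at 3 months on every array. The levels at 15 months were -2.49, -3.36, -3.17 and -2.53, with replicate 2 not well above background, and those at 3 months were -1.34, -1.09, -1.58 and -1.70. Such a separation, all 4 arrays of the older age below the 4 of the younger, was found for 6.78% of genes in this comparison. The mean was 2.74-fold lower (-2.89 ± 0.44 against -1.43 ± 0.27, log2 difference -1.46, SE 0.61, 95% interval -2.77 to -0.14), which did not pass with the spread estimated over all 4 ages (limma adjusted p = 0.384). That estimate includes the wide spread at 24 and 29 months. In a fit of the 8 arrays of these ages alone the SE was 0.22 and the adjusted p 0.0130. With array weights the adjusted p was 0.0489, and with the 4 arrays of lowest weight left out it was 0.00514. Of 13 alternatives other than single left-out arrays these 3 gave a call. In the other 10 the adjusted p reached 0.642, and normexp background correction gave a difference of -0.62 (adjusted p = 0.333).

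At the old ages Apln spread widely between arrays. The arrays of 24 months had -0.57, -3.82, -0.96 and -3.36, replicates 2 and 4 not being well above background, and those of 29 months had -2.35, -1.65, -3.42 and -1.70. Replicates 1 and 3 of 24 months thus lay above every array of 3 months, and replicates 2 and 4 below every one of them. The SD within ages, pooled, was 0.96 for Apln and 0.77 for Fstl1, larger than for 98.4% and 96.2% of all genes, whereas it was 0.36 to 0.47 for the other 4, between the 76.2 and the 86.7 percentile. The difference was -0.85 at 29 against 3 months (adjusted p = 0.396), 0.71 at 24 against 15 months (adjusted p = 0.632) and -0.10 at 29 against 24 months (adjusted p = 0.960). With the 4 arrays of lowest weight left out, the step at 24 against 15 months was 2.12 (adjusted p = 0.0297) and rested on 2 arrays at 24 months. The 8 endothelial markers, all measured, scored 0.03 to 0.21 at 15 months and 0.26 to 0.44 at 3 months. Every array of 15 months thus scored below every array of 3 months. In that comparison 0 of the 8 markers were called, where 0.914% of all genes were called. Their lowest scores, -1.05 and -0.47, were on replicate 2 of 24 months and replicate 3 of 29 months. Apln stood there at -3.82, not well above background, and -3.42. Replicate 1 of 24 months had an endothelial score of -0.22 and the highest Apln level of any array (-0.57). Replicate 4 of 24 months had an endothelial score of -0.003, with Apln at -3.36 and not well above background. The part of these cells in the Apln levels was not tested.

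Of the receptors and binding partners of the 6 factors, 11 of 12 were measured. At 29 against 3 months 0 were higher and 1 lower (6.84% and 7.95% of all genes), with a median difference of -0.16. The one was Aplnr, the apelin receptor, at -3.86 ± 0.70 at 29 months and -1.35 ± 0.25 at 3 months, a 5.69-fold lower signal (log2 difference -2.51, SE 0.38, adjusted p = 0.000719). It was well above background on 2 arrays of 4 at 29 months and on 4 of 4 at 3 months. Of the 8 endothelial markers, 3 were lower and 0 higher in this comparison (7.95% and 6.84% of all genes), with a median difference of -0.60. The part of endothelial cells in the Aplnr levels was not tested. Aplnr passed in each of the 16 fits that left out 1 array, but with normexp background correction the log2 difference was -0.91. Most of the difference was present by 15 months, where Aplnr stood at -3.18 ± 0.09, above background on all 4 arrays, 3.55-fold lower than at 3 months within the slide (log2 difference -1.83, adjusted p = 0.0374). That call was lost in 10 of the 16 fits with 1 array left out, up to an adjusted p of 0.106, although the difference stayed between -1.92 and -1.75. It was also lost under quantile normalization (adjusted p = 0.0694), median scaling (0.0632), no filter on dim probes (0.0847) and a replicate block (0.0541), and normexp gave a difference of -0.89. The ligand Apln and its receptor were thus each lower on all 4 arrays of 15 months than on any array of 3 months, with log2 differences of -1.46 and -1.83, and 1 of the 2 passed the test.

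Ngfr, the low-affinity receptor that Bdnf shares with the other neurotrophins, was 2.40-fold lower at 15 than at 3 months (-1.94 ± 0.41 against -0.68 ± 0.60, log2 difference -1.26, adjusted p = 0.0462), a call lost in 11 of 16 fits with 1 array left out (adjusted p up to 0.146) and under 8 of 14 other alternatives (up to 0.103). At 29 against 3 months it differed by -0.73 (adjusted p = 0.0938). Ntrk2, the high-affinity receptor of Bdnf, differed by -0.21 at 29 against 3 months (adjusted p = 0.209), all 4 arrays of 29 months lying below the 4 of 3 months, as for 11.2% of genes. Its second probe gave -0.60 (adjusted p = 0.383). For Il15ra, the subunit that presents Il15, the brighter probe gave -0.16 (adjusted p = 0.447) and the other probe 0.07 (adjusted p = 0.731), so the 2 probes differ in sign. Il2rb, the receptor subunit through which Il15 signals, was not tested because at no age was it well above background on all 4 arrays. Itgav and Itgb5, the integrin chains through which irisin acts on bone and fat cells, differed by 0.15 (adjusted p = 0.470) and 0.31 (adjusted p = 0.154), and the second Itgav probe by 0.35 (adjusted p = 0.333).

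Among upstream regulators and processing enzymes, 11 of 12 were measured. At 29 against 3 months 1 was higher and 1 lower (6.84% and 7.95% of all genes), with a median difference of 0.02. Ppargc1a, the coactivator upstream of Fndc5, was 1.97-fold higher (4.03 ± 0.49 at 29 months against 3.05 ± 0.27 at 3 months, adjusted p = 0.0111), and its second probe gave a log2 difference of 1.04 (adjusted p = 0.0219). Ppargc1b, its relative that also drives mitochondrial genes, was 2.21-fold lower (-0.70 ± 0.67 against 0.44 ± 0.19, adjusted p = 0.00855). Fndc5 itself differed by -0.19 in the same comparison. Furin, a protease that cleaves the apelin precursor, differed by 0.02 (adjusted p = 0.959).

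Of the relatives of the 6 genes, 13 of 19 were measured. At 29 against 3 months 3 were lower and 0 higher (7.95% and 6.84% of all genes), with a median difference of -0.21. Ntf5 (neurotrophin 4) and Ntf3 (neurotrophin 3), the relatives of Bdnf, were among them. Ntf5 was 2.0-fold lower (-0.31 ± 0.56 at 29 months against 0.69 ± 0.28 at 3 months, adjusted p = 0.00820). Ntf3 was 2.70-fold lower (-2.14 ± 0.54 against -0.71 ± 0.32, adjusted p = 0.00957), where Bdnf was 1.73-fold higher. The Ntf5 call was lost in a fit of these 8 arrays alone (adjusted p = 0.0558) and the Ntf3 call with the deposited values (adjusted p = 0.0697), and with normexp the log2 difference of Ntf3 was -0.79. Markers of nerve and Schwann cells, all 8 measured, scored -1.69 to 0.36 at 29 months and -0.63 to 1.42 at 3 months, and their part in these values was not tested. Sparcl1, a matrix protein of the family of Fstl1, was 2.37-fold lower (4.96 ± 0.60 against 6.20 ± 0.11, adjusted p = 0.00807). Metrn, Fndc4 and Fstl3, the nearest relatives of Metrnl, Fndc5 and follistatin, differed by -0.21, -0.46 and 0.26 (adjusted p-values of 0.724, 0.198 and 0.392).

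A wider list of 35 secreted factors of muscle had 24 measured members. At 29 against 3 months 3 were higher and 1 lower (6.84% and 7.95% of all genes), with a median difference of -0.20. Angptl4, a secreted inhibitor of lipoprotein lipase, was 13.5-fold higher (4.24 ± 0.78 at 29 months against 0.48 ± 0.50 at 3 months, adjusted p = 0.000110) and also 6.90-fold higher at 29 than at 24 months, on 1 slide (adjusted p = 0.00836, and 0.119 in a fit of those 8 arrays alone). Ostn, musclin, a peptide that muscle releases and that protects natriuretic peptides from removal, was 4.08-fold higher at 29 than at 3 months (3.81 ± 0.41 against 1.78 ± 0.11, adjusted p = 0.00289). It was highest at 15 months, 10.1-fold above 3 months within the slide (5.12 ± 0.66 against 1.78 ± 0.11, adjusted p = 0.000757). Cx3cl1, the membrane-bound chemokine fractalkine, was 2.73-fold higher at 29 than at 3 months (log2 difference 1.45, SE 0.38, adjusted p = 0.0202), lost without any 1 of 3 months replicates 1 and 2 and 29 months replicates 2 and 4 (adjusted p up to 0.0617), with median scaling (0.0530) and in a fit of these 8 arrays alone (0.0634). Sparc, a collagen-binding matrix protein, was 2.07-fold lower (6.27 ± 0.34 against 7.32 ± 0.33, adjusted p = 0.00358).

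Other well-known muscle factors gave no call. Mstn, myostatin, the inhibitor of muscle growth, differed by -0.58 at 29 against 3 months (adjusted p = 0.117) and was called without 29 months replicate 3 (-0.86, adjusted p = 0.00506). Adipoq, the adipocyte hormone adiponectin, differed by -0.21 (adjusted p = 0.895) and by 0.21 without 29 months replicate 3, the array with the lowest adipocyte score. Il6, Fgf21 and Gdf15, secreted factors that stress and exercise induce, were not tested. At 3, 15, 24 and 29 months, Il6 was well above background on 0, 0, 0 and 2 arrays of 4, Fgf21 on 0, 0, 1 and 0, and Gdf15 on 0, 2, 3 and 3. The mean level of Gdf15 was -5.0, -4.1, -3.2 and -2.6 in the same order, where values not well above background are no firm measure. Of the 59 measured genes of the 4 lists, 10 were called at 29 against 3 months, 3 at 15 against 3 months (Aplnr and Ngfr lower, Ostn higher), 0 by limma at 24 against 15 months and 1 at 29 against 24 months (Angptl4 higher). The shares of all genes called were 14.8%, 0.914%, 0.101% and 1.52% in the same order. An unadjusted p under 0.05 was reached by 17, 11, 11 and 5 of the 59 in these comparisons, or 28.8%, 18.6%, 18.6% and 8.47%, against 28.8%, 10.9%, 13.1% and 15.2% of all genes.

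**Figure D5:**
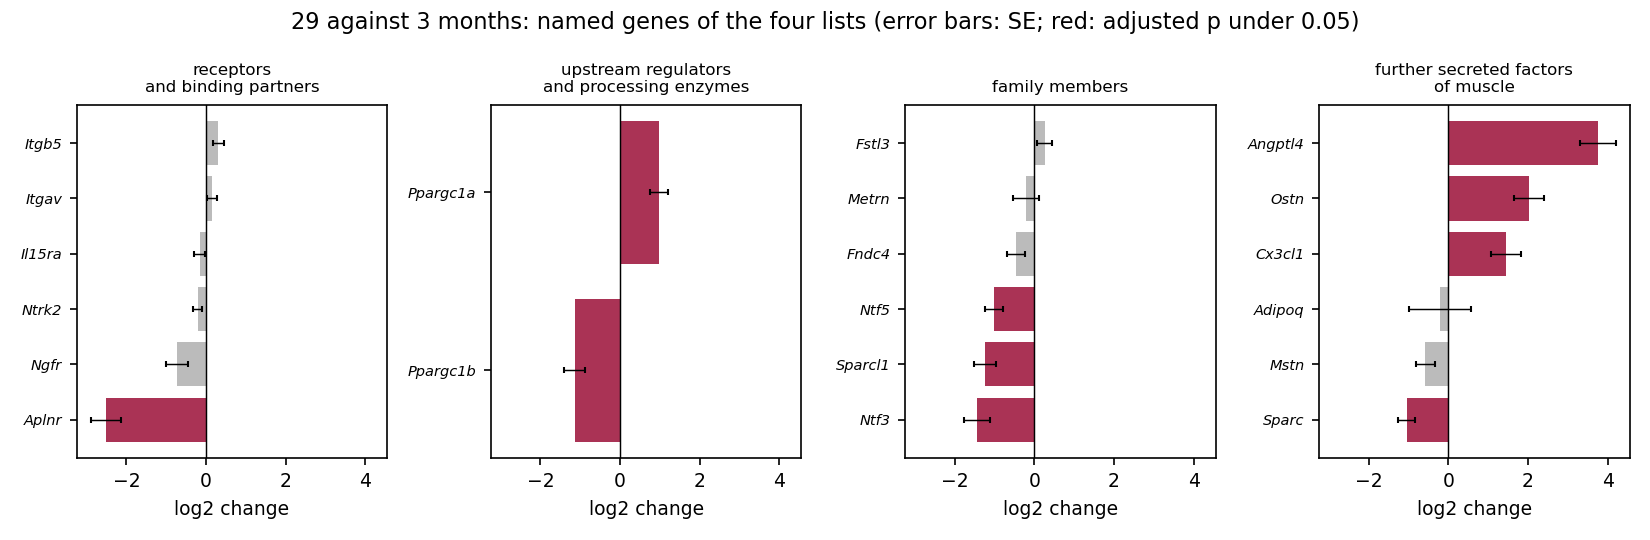
Log2 difference at 29 against 3 months with its SE for the named measured genes of the lists of receptors and binding partners, upstream regulators and processing enzymes, family members, and further secreted factors of muscle, with genes called at an adjusted p under 0.05 in red. Aplnr (-2.51) and Angptl4 (3.76) lie farthest from 0, and genes in grey were not called.

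The genes whose levels over the 16 arrays were most like those of each factor were sought among 12892 named genes by Pearson's r, given here as a description of arrays that share their scaling, slide and tissue makeup. Fstl1 had the closest likeness of the 6, to Lum (lumican, r = 0.975), Rcn3 (reticulocalbin 3, r = 0.968) and Fn1 (fibronectin, r = 0.967), 2 of which encode matrix proteins and 1 of which, Lum, is among the fibroblast markers used here. Il15 was most like Tas1r1 (a taste receptor subunit, r = 0.903), Trmt61b (r = 0.901) and Mef2c (a muscle transcription factor, r = 0.886). For Bdnf these were Slc25a36 (a mitochondrial nucleotide carrier, r = 0.886), Kcnj2 (an inward rectifier potassium channel, r = 0.865) and Ddx3x (an RNA helicase, r = 0.863). Fndc5 was most like Inpp5j (r = 0.872), Ldhb (a lactate dehydrogenase subunit of oxidative fibres, r = 0.871) and Tomm40l (r = 0.870), and Metrnl most like Plod3 (a collagen-modifying enzyme, r = 0.879), Dennd5a (r = 0.864) and Mesd (r = 0.864). The values for Apln were lower, with Akirin1 (r = 0.820), Sf3a1 (r = 0.799) and Adprh (r = 0.789). Among the 6 themselves, r over the 16 arrays ran from -0.40 for Il15 and Bdnf to 0.64 for Fndc5 and Metrnl.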

How the data were processed

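Labelled RNA of 16 samples was measured on Agilent 1-colour arrays, and samples were grouped by the age in their labels. Spot intensity was made by Agilent Feature Extraction 10.7.1.1, which subtracted background with spatial detrending and did not scale arrays to each other, per the file headers. A deposited table of log2 values for the whole series served only as an alternative. Its rows matched the scanner files by feature number (r across probes 0.985 to 0.993) and not by probe name (r -0.0051 to 0.0183), and the steps by which the authors made them are not given in the sources used here.

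Spots marked as outliers were left out, log2 intensities were set relative to the 75th percentile of each array and spots were averaged per probe. Probes were kept (28435) if some age had all its 4 arrays well above background. A gene was its kept probe of highest mean, named through RefSeq accessions (assembly GRCm38.p6, for 13355 of 21777 genes). As the headers name another build (mm9), no coordinates are given. No probe or protein sequences were used here.

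Means of the 4 ages were fitted to all 16 arrays with limma 3.58.1 in R 4.3.3 (12 residual degrees of freedom, eBayes), two-sided, with Benjamini-Hochberg adjustment over all genes tested, and a gene was called at an adjusted p under 0.05. Gene lists are described by counts and medians only. The fit was also run on simulated data, and the outcome is not reported here. The number of arrays limits the precision. The members, lists, tests and alternatives were chosen with earlier results of these data known. Genes named are the 6 members with all their probes, the 3 named genes most like each over the arrays, of each list the 2 with the smallest p at 29 against 3 months and those called there, and the fixed genes Ppargc1a, Il15ra, Il2rb, Aplnr, Ntrk2, Ngfr, Itgav, Itgb5, Metrn, Fndc4, Fstl3, Il6, Fgf21, Gdf15, Mstn, Adipoq, Pecam1 and Col1a1. Furin was added after its values were seen. Some list members are not reported here by name. Pecam1, an endothelial marker, differed by -0.30 at 29 against 3 months (adjusted p = 0.260). Of the 8 endothelial markers, 3 were lower and 0 higher in that comparison (7.95% and 6.84% of all genes), with a median difference of -0.60.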

Additional observations from a re-analysis of the deposited data

Results flagged for a closer look

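Bdnf on 29 months replicate 1 (-2.801 on the log2 scale relative to the array's 75th percentile) stood apart from the other 3 arrays of that age, which lay between -1.598 and -1.537. Its gap to the nearest of them was 0.952 of the range of the 4, above the 95% critical value of Dixon's test for 4 values. Of 24 groups of 4 arrays examined (6 genes at 4 ages) this was the only one past that value, and chance flags about 1 in 20.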

How the results depend on the processing

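Of the 24 differences of the 6 genes, only Bdnf at 29 against 3 months was called. That call was lost under quantile normalization (log2 difference 0.74), median scaling (0.78), the deposited values (0.71), and at an unaltered 0.79 without the filter on dim probes, in a fit of the 2 ages alone and with a replicate block (adjusted p = 0.0523). Leaving out 1 array in turn gave 0.65 to 1.09 for it, 0.53 to 0.95 for Bdnf at 29 against 24 months, -0.87 to -0.51 for Il15 at 29 against 3 months and -1.02 to -0.67 for Il15 at 29 against 24 months. Calls that arose were Apln at 15 against 3 months (-1.46 with 2 ages alone or without the 4 arrays of lowest weight, -1.52 with array weights), Apln at 24 against 15 months (2.12 without those 4) and Bdnf at 29 against 24 months (1.02 without the lowest 2). Mstn at 29 against 3 months was called with a replicate block, with array weights and without the lowest 4 (log2 differences -0.58, -0.72 and -0.92). Without the lowest 4, the log2 differences at 29 against 3 months were -0.64 for Ppargc1b, -0.75 for Sparcl1, -1.59 for Col1a1 and 2.24 for Cx3cl1, all still called. The cause of these moves was not tested.

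Signs turned only for differences that passed no test. At 29 against 24 months they were, for Fndc5, 0.017 (median scaling), 0.042 (array weights), 0.070 (without the lowest 2) and 0.14 (without the lowest 4). For Metrnl they were 0.081 (both median scaling and array weights), 0.031 and 0.15, for Fstl1 -0.014 (quantile), -0.0036 (deposited) and -0.37 (lowest 2), and for Apln 0.020 (quantile) and 0.042 (median scaling). At 24 against 15 months Fndc5 was -0.088 with median scaling, and Metrnl 0.13 with weights and 0.093 and 0.18 without the lowest 2 and 4. At 29 against 3 months Fndc5 was 0.0049 and 0.10 without the lowest 2 and 4. Without the lowest 4, Metrnl was 0.096, Metrn 0.10, Il15ra 0.031 (0.072 on its second probe) and Adipoq 0.65 (0.015 with normexp, 0.29 with weights). With 1 array left out, ranges that crossed 0 at 29 against 3 months were -0.39 to 0.0049 (Fndc5), -0.40 to 0.016 (Metrn) and -0.80 to 0.21 (Adipoq). At 15 against 3 months Fndc5 ran from -0.34 to 0.062. At 24 against 15 months the ranges were -0.0028 to 0.22 (Fndc5) and -0.29 to 0.093 (Metrnl), and at 29 against 24 months -0.30 to 0.067 (Fndc5), -0.26 to 0.23 (Metrnl), -0.48 to 0.49 (Fstl1) and -0.65 to 0.43 (Apln).

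Counts over all genes depended more on the setting. At 29 against 3 months, 3222 genes were called, and 1537 with median scaling and 1994 with 2 ages alone. At 15 against 3 months 199 were called, against 89 (median scaling), 314 (deposited), 102 (no filter), 721 (2 ages), 1143 (weights), 350 and 773 (without the lowest 2 and 4), and 75 to 280 with 1 array left out. At 24 against 15 months 22 were called, against 10 (probes above background on all arrays, where Apln has no value), 12 (2 ages), 154 (weights), 9 (lowest 4) and 2 to 59. At 29 against 24 months 330 were called, against 567 (normexp), 1097 (deposited), 141 (no filter), 7 (2 ages), 210 (replicate block), 197 (weights), 217, 41 and 122 to 436. Among the 4 lists, the 3 calls at 15 against 3 months became 1 (quantile, median scaling, no filter, replicate block), 8 (weights), 7 (lowest 4) and 1 to 4, the 0 at 24 against 15 months became 1 (weights), and the 1 at 29 against 24 months became 2 (deposited), 0 (2 ages) and 1 to 2. Median scaling moved the median of all genes to -0.15 at 24 against 15 and 0.096 at 29 against 24 months, and the share of calls that were higher to 55.6% (72.7% otherwise) and 90.8% (71.5% otherwise).

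Replicate numbers did not pair the samples: deviations of same-numbered arrays had r of -0.47 to 0.30, over 0.1 in 6 of 24 pairs, and 5 of 16 arrays were closest to their own number. The median spot signals stood in for means in normexp. Slide as a random block was not run, because each slide is a sum of whole age groups and no correlation can be estimated. Signal over background limits Apln, whose levels on the 3 arrays not well above background have no firm order.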
